A study of Mus musculus with 18 samples.

Results

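The response of memory T helper 2 (Th2) cells to the cytokine IL-33 was described in 6 of the 18 libraries of the series. The cells came from BALB/c mice and carried high levels of ST2, the receptor for IL-33. One group of 3 libraries (replicates 1, 3 and 5) came from cells cultured for 3 days with IL-2 alone, and the other (replicates 2, 4 and 6) from cells given IL-33 beside the same IL-2. IL-2 was thus present on both sides, and each difference below is that between cells with and without IL-33, all supplied with IL-2. The members are the 10296 gene symbols, of 23284 in the tables, with at least 1 FPKM (a fragment count scaled for transcript length and library size) in at least 3 of the 6 libraries. A gene present in only 1 group could enter, so a list of entered genes can lean towards that group. The labels do not say whether the replicates were separate cultures or animals, so a p-value here reflects no more than how far these libraries differ among themselves. How the ST2-high cells were obtained is not stated in them. The libraries came from total RNA of bulk cultures, in which fewer cells of a type and less RNA per cell cannot be told apart.

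IL-33 is a cytokine of the IL-1 family that barrier cells release when they are damaged. It binds ST2, encoded by Il1rl1, which pairs with the accessory chain encoded by Il1rap and signals through MyD88, IRAK kinases and TRAF6 to NF-κB and the MAP kinases. In allergic airways this route is known for raising IL-5 and IL-13 output from memory Th2 cells and innate lymphoid cells without engagement of the T cell receptor. Type I interferons use a different route, in which a STAT complex with IRF9 binds the interferon-stimulated response element in the promoters of antiviral genes.

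Values are given as FPKM, per library in the order of replicates 1, 3 and 5 with IL-2 alone and 2, 4 and 6 with IL-33, or as mean ± SD (n = 3 per group). Differences are IL-33 minus IL-2 alone on the log2(FPKM + 1) scale, which understates the change of genes near or below 1 FPKM. A gene was said to have risen or fallen where limma gave an adjusted p below 0.05 over all 10296 genes. By that rule 1680 genes rose (16.3%) and 2651 fell (25.7%), together 42.1%. These shares are the background for each count of list members below that comes from this fit. Those that moved by at least 1 log2 unit were 514 upwards (4.99%) and 419 downwards (4.07%). Of these 933 genes, 930 had groups that did not overlap, against 56.7% of all genes. The same values selected these genes, so their lack of overlap is largely set by the selection. Of the 933 genes, 864 passed the test in the same direction whichever single library was left out. The other 3398 called genes, 78.5% of the total, moved by less than 1 log2 unit. Among all called genes the share that rose depended on the scaling, and it was 38.8% in the deposited values. After rescaling to a common sum the share was 54.4%, and after median-of-ratios scaling it was 51.4%. The median difference of all genes was -0.106 in the deposited values and -0.0176 and -0.0132 under those scalings. Of the 10296 genes, 1586 fell after rescaling to a common sum. The number that fell was 1940, 1784 and 2137 without IL-2 replicates 1, 3 and 5. It was 1633, 1530 and 3135 without IL-33 replicates 2, 4 and 6. A list count under 1 of these fits has that number as its background, so a lower list count there can follow the whole.

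The libraries carried the marks of the labelled cells. Il1rl1 read 57.9, 52.1 and 44.5 FPKM with IL-2 alone and 517, 515 and 506 with IL-33. Gata3, the master regulator of Th2 cells, read 116, 119 and 76.7 FPKM with IL-2 alone and 213, 239.6 and 220.2 with IL-33. Neither gene overlapped between the groups. Cd3e, a chain of the T cell receptor complex, was at 158 ± 13.5 and 163 ± 15.8 FPKM and was not called (0.04, limma adjusted p = 0.778). Of 9 T cell markers 5 rose and 2 fell, with a summed level of 1893 to 2033 FPKM with IL-2 alone and 2321 to 2569 with IL-33. Of 11 markers of group 2 innate lymphoid cells, which share much of the Th2 programme, 8 were tested and 6 of them rose, Il1rl1 and Gata3 included. Most lists of markers of other cells were low. The lists of 10 B cell, 10 neutrophil and 12 mast cell and basophil markers had no tested member, and their sums stayed under 2 FPKM in each library. Macrophage markers summed to 8.16 to 11.7 FPKM with IL-2 alone and 5.67 to 9.36 with IL-33. Fibroblast and endothelial markers summed to 24.4 to 41.9 and 14.3 to 20.2, and epithelial markers to 6.38 to 10.2 and 5.47 to 5.67. Dendritic cell markers summed to 30.6 to 32.7 FPKM and 44.8 to 54.3, and 2 of the 4 tested rose, Batf3 and H2-Ab1. The defining markers Itgax and Flt3 reached at most 0.304 and 0.0293 FPKM. Plasma cell markers summed to 468 to 530.6 FPKM and 527.6 to 554.5, nearly all of it Xbp1 and Irf4, which T cells also express. The plasma cell marker Igj reached at most 0.276 FPKM, and Tnfrsf17 was listed at 0 in each library. Of 10 markers of CD8 T cells and natural killer cells 2 were tested and both rose, with a summed level of 23.5 to 53.7 FPKM and 311.5 to 775.9. These were Gzma, described below, and Cd8b1, from 4.38 ± 1.09 to 12.3 ± 3.4 FPKM (limma adjusted p 0.00344). Cd8a was listed at 0 in 5 of 6 libraries. Whether the cells behind these other markers had a part in any result below was not tested.

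Relative depth, the most frequent ratio of IL-2 replicate 1 to each library among values under 0.2 FPKM, ran from 0.67 to 1.34. It was lowest in IL-2 replicate 5 (0.67) and IL-33 replicate 6 (0.74), whose titles also spell ST2high in another case than the rest. These libraries stood apart for a number of cytokine genes. Where leaving out 1 library ended or made the call of a named gene, that is given beside it. With a term for these 2 libraries in the fit 2156 genes rose and 3668 fell, and in the other 4 libraries alone 2125 rose and 3723 fell. Whether the spelling marks a batch is not stated in the labels. With that term 15 of the 37 genes named in the text as not called were called (Il13, Il31, Il3, Csf2, Ifng, Tnf, Ccl3, Gzmb, Il18rap, Il1rl2, Cxcr6, Nfkbia, Igtp, Cd74 and Bcl2l1). Small RNA features held 20.16 to 21.38% of all FPKM with IL-2 alone and 12.11 to 18.18% with IL-33, and with these features removed and the rest rescaled 37.2% of called genes were higher.

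**Figure D1:**
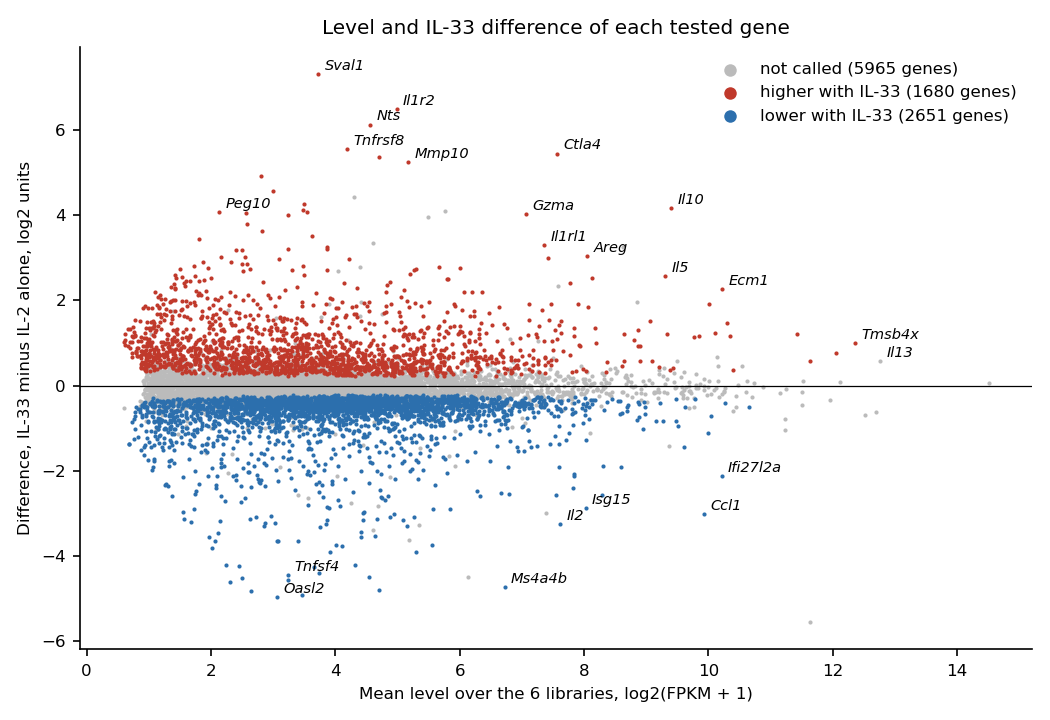
Each point is 1 of 10296 tested genes. The horizontal axis is the mean log2(FPKM + 1) over the 6 libraries and the vertical axis is the IL-33 difference in log2 units. Red points are the 1680 genes that rose, blue the 2651 that fell and grey the rest. Above, 7 genes that rose exceed 5 log2 units. Below, no gene that fell does, and 1 grey point lies beyond that distance.

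At least 3 log2 units separated the groups for 30 genes that rose and 51 that fell, and at least 4 for 17 and 15. For 11 genes the mean was under 1 FPKM with IL-2 alone and at least 10 FPKM with IL-33. The largest was Sval1, a gene of the prolactin-inducible protein family, which read 0, 0.176 and 0 FPKM with IL-2 alone and 155, 117 and 249 with IL-33. It was listed at 0 in 2 of the IL-2 libraries and high in every IL-33 library (log2 difference 7.30, SE 0.257, limma adjusted p = 8.89e-06). Peg10, an imprinted gene derived from a retrotransposon, read 0.0926, 0.0787 and 0.0346 FPKM with IL-2 alone and 12.4, 14.2 and 27 with IL-33 (log2 difference 4.06, SE 0.261, limma adjusted p = 7.4e-05). The apoptosis-related gene Bcl2l14 was also among the 11, at 17.7, 15.3 and 44.6 FPKM with IL-33. So were the cytoskeletal gene Ermn, at 9.85, 8.54 and 13.9 FPKM, and the vesicular glutamate transporter gene Slc17a6, at 15.3, 14.8 and 17.9 FPKM. The complement gene C3 rose as well, most of all in 1 library, at 9.5, 8.21 and 41.6 FPKM, and its difference of 3.19 became 2.49 without IL-33 replicate 6. In the other direction 14 genes went from at least 10 FPKM to under 1. Klrk1, which encodes the activating receptor NKG2D, was 1 of them and read 11.2, 12.9 and 16.2 FPKM with IL-2 alone and 0.256, 0.119 and 0.571 with IL-33 (log2 difference -3.46, SE 0.173, limma adjusted p = 2.81e-05). The others included the interferon-inducible genes Oasl2, Ifit2, Ifit3 and Apol9b. Mpeg1, which encodes the pore-forming protein perforin-2, read 10.8, 10.9 and 24.1 FPKM with IL-2 alone and 0.0677, 0.0293 and 0.147 with IL-33 (log2 difference -3.82, SE 0.285, limma adjusted p = 0.000144).

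Genes of secreted products went both ways. Of 7 type 2 cytokine genes tested, 2 rose, Il5 and Il4, and 1 fell, Il9. Il4 read 3306, 3594 and 2866 FPKM with IL-2 alone and 5243, 4175 and 7613 with IL-33 (log2 difference 0.76, SE 0.24, limma adjusted p = 0.0398). Its call ended without IL-2 replicate 1, 3 or 5 or IL-33 replicate 2 or 6 (largest adjusted p 0.102). Il9, a mast cell growth factor gene, read 389, 406 and 641 FPKM with IL-2 alone and 79, 70.1 and 239.9 with IL-33, highest in replicates 5 and 6 of their groups and without overlap. The most abundant gene of both groups, small RNAs aside, was Il13, the other effector cytokine of the class, at 5754 ± 843 and 8741 ± 2658 FPKM. It did not pass the test although its groups did not overlap (log2 difference 0.57, SE 0.247, limma adjusted p = 0.102). With the term for replicates 5 and 6 its adjusted p was 0.0263 (limma). Il5, the eosinophil growth factor, read 265, 262 and 246 FPKM with IL-2 alone and 1424, 1355 and 1909 with IL-33, so that its lowest IL-33 library held more than 5 times its highest IL-2 library. Il31, an itch-inducing cytokine, read 8.66, 9.61 and 31.8 FPKM with IL-2 alone and 36.1, 29.9 and 96 with IL-33 and overlapped (log2 difference 1.68, SE 0.58, limma adjusted p = 0.0532). Il3 and Csf2, whose products share a receptor chain with IL-5, also overlapped. Il3 was at 176 ± 141 and 242 ± 112 FPKM. Csf2 was at 430.0 ± 317 and 363 ± 370.2 FPKM. IL-2 replicate 5 and IL-33 replicate 6 were the highest of their groups for Il31, Il3 and Csf2. Without IL-2 replicate 5 the differences of Il31 and Il3 were 2.25 and 1.26 and were called (limma adjusted p 0.014 and 0.0338). With the term for both libraries Il31, Il3 and Csf2 differed by 1.68, 0.65 and -0.49 (limma adjusted p 2.37e-05, 0.0244 and 0.0354).

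Among other interleukins, 5 of 17 rose and 5 fell (median difference -0.32). The falls numbered 3 without IL-2 replicate 5, IL-33 replicate 2 or IL-33 replicate 4 and 9 without IL-33 replicate 6. Il10, an inhibitory cytokine, read 301, 309 and 42.5 FPKM with IL-2 alone and 3196, 2838 and 2546 with IL-33, low in IL-2 replicate 5. Its difference of 4.16 was 3.22 without that library. Il24, a member of the IL-10 family, read 957, 1017 and 440.3 FPKM with IL-2 alone and 2282, 2071 and 1896 with IL-33 (log2 difference 1.46, SE 0.314, limma adjusted p = 0.0106). Its IL-33 libraries all lay above the IL-2 libraries, of which replicate 5 was lowest. Osm, the gene of oncostatin M, rose from 30.8 ± 1.38 to 54.8 ± 3.12 FPKM (log2 difference 0.81, SE 0.0787, limma adjusted p = 0.000445). Csf1, a macrophage growth factor gene, rose from 33.8 ± 8.61 to 64.9 ± 1.79 FPKM (log2 difference 0.95, SE 0.183, limma adjusted p = 0.00689). Il18 read 7.02, 6.82 and 13.7 FPKM with IL-2 alone and 0.0847, 0.0916 and 0 with IL-33, with no IL-33 library above 0.1 FPKM (log2 difference -3.20, SE 0.242, limma adjusted p = 0.000151). Il2 itself read 376, 412 and 1394 FPKM with IL-2 alone and 33.5, 30.6 and 235 with IL-33 (log2 difference -3.24, SE 0.851, limma adjusted p = 0.0215), and was highest in replicates 5 and 6 of their groups. Leaving out IL-2 replicate 5, IL-33 replicate 2 or IL-33 replicate 4 ended its call, with a largest adjusted p of 0.0788. The difference was -2.63 without IL-2 replicate 5 and -4.18 without IL-33 replicate 6.

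Ligands of the TNF family fell more often than they rose. Of 13 tested 8 fell and 0 rose, with a median difference of -1.42 against -0.106 over all genes. The falls numbered 5 without IL-33 replicate 2 or 4. Tnfsf4, which encodes OX40 ligand, read 26.9, 27.6 and 109 FPKM with IL-2 alone and 0.518, 0.69 and 2.23 with IL-33 (log2 difference -4.45, SE 0.56, limma adjusted p = 0.00126), or -3.80 without IL-2 replicate 5, the highest library. Lta, the gene of lymphotoxin alpha, read 82.4, 89.1 and 288 FPKM with IL-2 alone and 13.2, 14.7 and 23 with IL-33 (log2 difference -2.89, SE 0.476, limma adjusted p = 0.0038). Tnfsf8, the gene of CD30 ligand, read 359, 339 and 873 FPKM with IL-2 alone and 98.7, 88.5 and 145 with IL-33 (log2 difference -2.12, SE 0.377, limma adjusted p = 0.00513). In all 3 genes IL-2 replicate 5 was the highest library and the groups did not overlap. Tnfsf10, the gene of TRAIL, fell from 11.6 ± 2.83 to 2.06 ± 0.577 FPKM (log2 difference -2.03, SE 0.193, limma adjusted p = 0.000412). Tnf and Cd40lg overlapped between the groups. Tnf was at 185 ± 132 and 102 ± 88.7 FPKM. Cd40lg was at 185 ± 56.6 and 166 ± 106 FPKM. Neither was called, but without IL-33 replicate 6 both were, with differences of -1.64 for Tnf and -0.77 for Cd40lg (limma adjusted p 0.0363 and 0.033).

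Of 22 chemokine genes looked for, 7 were tested, 3 fell and 0 rose. Ccl1, the ligand of the Th2 receptor CCR8, read 1493, 1659 and 8752 FPKM with IL-2 alone and 222, 199.8 and 902 with IL-33 (log2 difference -3.02, SE 0.821, limma adjusted p = 0.0242). Its mean was the fourth highest with IL-2 alone, small RNAs aside, a rank owed to IL-2 replicate 5. Its difference ranged from -2.20 without IL-2 replicate 5 to -3.72 without IL-33 replicate 6. It was not called without IL-33 replicate 2 or 4 (largest adjusted p 0.0859). Ccl5, which attracts effector T cells and monocytes, fell from 183 ± 8.52 to 32.1 ± 4.96 FPKM (log2 difference -2.48, SE 0.117, limma adjusted p = 2.44e-05). Cxcl10, a ligand of CXCR3, fell from 29.2 ± 5.08 to 1.38 ± 0.0815 FPKM (log2 difference -3.65, SE 0.129, limma adjusted p = 8.89e-06). Ccl3 and Ccl4 overlapped between the groups, with adjusted p of 0.184 for Ccl3 and 0.404 for Ccl4 (limma). With the term for replicates 5 and 6 Ccl3 was higher by 0.81 (limma adjusted p 0.00488). Ccl17, Ccl22 and Ccl24, which attract Th2 cells or eosinophils, were low in both groups. Ccl22 overlapped at 3.82 ± 2.97 and 3.48 ± 2.7 FPKM. The highest library held 0.471 FPKM of Ccl17 and 0.155 FPKM of Ccl24.

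Of 13 growth factor genes 4 rose, or 2 without IL-2 replicate 3, and 5 fell. Beside Areg, at 581, 662 and 1133 FPKM with IL-33 against 78.5, 89 and 111 with IL-2 alone, the vascular factor gene Vegfa rose from 1.92 ± 0.73 to 6.13 ± 1.09 FPKM (log2 difference 1.31, SE 0.209, limma adjusted p = 0.00334). Hbegf, like Areg an EGF family ligand gene, moved the opposite way and read 59, 66.6 and 97.6 FPKM with IL-2 alone and 14.5, 18.6 and 19.8 with IL-33 (log2 difference -2.00, SE 0.201, limma adjusted p = 0.000532). The groups of Areg and of Hbegf did not overlap. Fgf2, Vegfc and Pdgfb, growth factors of fibroblasts and of lymphatic and mural cells, fell, with log2 differences of -1.73, -2.11 and -2.21. Pdgfb was highest in IL-2 replicate 5 (7.33, 6.63 and 22.1 FPKM).

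Of 23 peptide hormone and neuropeptide precursor genes 5 were tested, 4 rose and 0 fell. Nts, the neurotensin precursor gene, read 2.53, 2.76 and 0.689 FPKM with IL-2 alone and 160.4, 133 and 349 with IL-33 (log2 difference 6.12, SE 0.431, limma adjusted p = 0.000109). Pth, which encodes parathyroid hormone, read 8.63, 5.96 and 0 FPKM with IL-2 alone and 156, 111 and 259 with IL-33 (log2 difference 5.35, SE 0.817, limma adjusted p = 0.00281). Its difference was 4.34 without IL-2 replicate 5 and 5.97 without IL-2 replicate 1. Penk, the proenkephalin gene, was already present with IL-2 alone and read 89, 103 and 91.5 FPKM with IL-2 alone and 419, 470.4 and 649 with IL-33 (log2 difference 2.41, SE 0.166, limma adjusted p = 9.96e-05). Calca, which encodes calcitonin and the calcitonin gene-related peptide, read 18.2, 21.8 and 16.6 FPKM with IL-2 alone and 75.4, 74.8 and 74.4 with IL-33 (log2 difference 1.94, SE 0.106, limma adjusted p = 3.74e-05). For all 4 genes the lowest IL-33 library was more than 3 times the highest IL-2 library. Vip and Nmu, the precursors of other peptides that act on lung immune cells, were listed at 0 in at least 5 of 6 libraries.

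Proteases and their inhibitors gave some of the largest differences. Mmp10, the gene of the matrix metalloproteinase stromelysin-2, read 6.2, 7.1 and 2.45 FPKM with IL-2 alone and 257, 201 and 209 with IL-33 (log2 difference 5.24, SE 0.309, limma adjusted p = 5.28e-05). Mmp3, the stromelysin-1 gene, went from 0.132 ± 0.0154 to 5.47 ± 0.411 FPKM (log2 difference 2.51, SE 0.0955, limma adjusted p = 1.19e-05). Timp1, an inhibitor of such enzymes, fell from 43.3 ± 6.88 to 11.6 ± 1.37 FPKM (log2 difference -1.80, SE 0.136, limma adjusted p = 0.000149). The gelatinase gene Mmp9 fell from 2.45 ± 0.425 to 0.751 ± 0.506 FPKM (log2 difference -1.01, SE 0.213, limma adjusted p = 0.00985). Of 11 serpin and cystatin-like inhibitor genes tested, 6 rose and 4 fell. The cathepsin inhibitors Cst3, Cst7, Stfa2 and Stfa2l1 rose, Stfa2 from 0.283 ± 0.261 to 38.4 ± 11.4 FPKM (log2 difference 4.92, SE 0.235, limma adjusted p = 2.49e-05). Reads of the near-identical stefin copies may have been divided among them. Serpinf1, the gene of pigment epithelium-derived factor, rose from 1.91 ± 0.845 to 46.8 ± 3.21 FPKM (log2 difference 4.08, SE 0.208, limma adjusted p = 3e-05). Serpinb9, which protects a cell from its own granzyme B, read 34.7, 37.5 and 118 FPKM with IL-2 alone and 1.74, 1.44 and 2.57 with IL-33 (log2 difference -4.25, SE 0.448, limma adjusted p = 0.000629). Serpina3f, Serpina3g and Serpinb6b fell too. All 4 of these were highest in IL-2 replicate 5, and the difference of Serpina3g was -2.61, or -2.01 without that library. Serpinb6b was not called without IL-33 replicate 2 or 4 (largest adjusted p 0.055).

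Cytotoxic granule genes went both ways, 2 up and 5 down of 11, with 3 falls without IL-33 replicate 4. Gzma read 40.3, 49.3 and 16.8 FPKM with IL-2 alone and 765, 686 and 295 with IL-33 (log2 difference 4.01, SE 0.481, limma adjusted p = 0.00104). Srgn, the proteoglycan that packs granules, rose from 1794 ± 50.6 to 4196 ± 469.8 FPKM (log2 difference 1.22, SE 0.135, limma adjusted p = 0.000751). Gzmb, the more abundant granzyme, overlapped between the groups at 1334 ± 470.1 and 1795 ± 431 FPKM (log2 difference 0.47, SE 0.32, limma adjusted p = 0.268), and had an adjusted p of 0.0145 with the term for replicates 5 and 6 (limma). Prf1, the perforin gene, stayed under 1 FPKM in all 6 libraries. Beside Klrk1, its relative Klrd1 fell from 2.11 ± 0.505 to 0.087 ± 0.0848 FPKM (log2 difference -1.50, SE 0.15, limma adjusted p = 0.000502). Of 12 prostanoid and leukotriene genes 4 rose and 4 fell. Ptgs2, which encodes the inducible cyclooxygenase, went from 1.26 ± 0.955 to 14.3 ± 2.44 FPKM (log2 difference 2.86, SE 0.341, limma adjusted p = 0.00103). The leukotriene receptor genes Ltb4r1 and Cysltr2 both rose. Ltb4r1 went from 23.5 ± 6.81 to 135 ± 27.8 FPKM (log2 difference 2.50, SE 0.243, limma adjusted p = 0.000451). Cysltr2 went from 3.77 ± 1 to 22.3 ± 1.86 FPKM (log2 difference 2.31, SE 0.154, limma adjusted p = 8.96e-05). The prostaglandin E2 receptor gene Ptger4 fell from 127 ± 9.6 to 36.8 ± 2.31 FPKM (log2 difference -1.77, SE 0.0896, limma adjusted p = 2.98e-05).

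**Figure D2:**
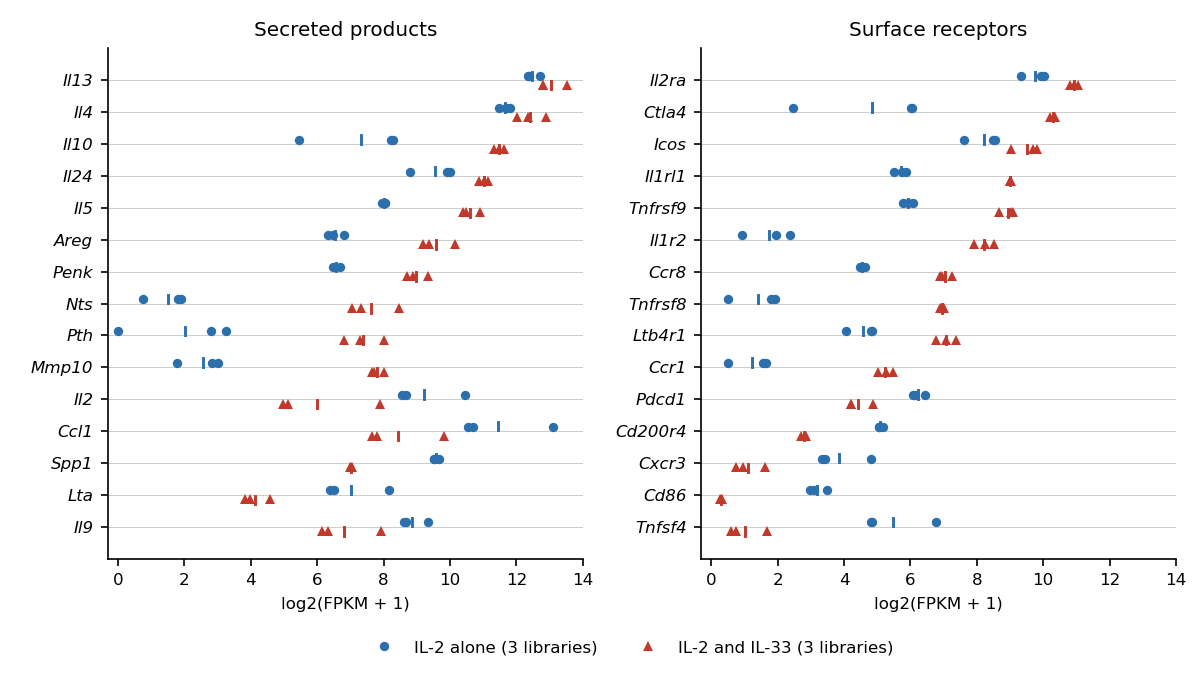
The value of 30 genes in each of the 6 libraries is shown as log2(FPKM + 1) on the horizontal axis, with secreted products on the left and surface receptors on the right. Blue circles are the 3 libraries with IL-2 alone, red triangles the 3 with IL-2 and IL-33, and the short vertical lines group means. Il10 and Ctla4 have a single low blue point, IL-2 replicate 5, while Il5, Spp1 and Il1rl1 have tight groups.

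Surface receptors showed rises and falls in each family counted. Within the IL-1 receptor family, 3 of 9 rose and 2 fell, or 1 to 2 with 1 library left out. The signalling IL-1 receptor gene Il1r1 went from 0.306 ± 0.22 to 4.11 ± 1.35 FPKM (log2 difference 1.95, SE 0.211, limma adjusted p = 0.000681), together with the decoy gene Il1r2. Il18r1 and Il18rap, the IL-18 receptor pair, overlapped between the groups (limma adjusted p 0.622 for Il18r1 and 0.421 for Il18rap). Il18bp, the secreted IL-18 inhibitor, fell from 30.1 ± 2.18 to 3.51 ± 0.913 FPKM (log2 difference -2.80, SE 0.147, limma adjusted p = 3.27e-05). Il1rap, the chain shared by the IL-33 and IL-1 receptors, was lower at 9.72 ± 3.79 and 4.72 ± 1.63 FPKM (log2 difference -0.89, SE 0.28, limma adjusted p = 0.0398). The call was absent without IL-2 replicate 3, IL-2 replicate 5, IL-33 replicate 2 or IL-33 replicate 4 (largest adjusted p 0.128).

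Receptors of the common gamma chain group, and of IL-6, IL-10, IL-12, the interferons and TGF-beta, also rose in part. In the first group 5 of 13 rose, or 3 without IL-33 replicate 2 or 4, and 3 fell. In the other 8 of 14 rose, or 5 without IL-33 replicate 4, and 2 fell. Il2ra, the high-affinity IL-2 receptor chain, read 1035, 976 and 636 FPKM with IL-2 alone and 1942, 2118 and 1779 with IL-33, without overlap. The signalling chains Il2rb and Il2rg were at 272 ± 6.3 and 279.6 ± 11.1 FPKM for Il2rb and 682 ± 62.4 and 604 ± 14.1 FPKM for Il2rg and were not called. The IL-7 receptor gene Il7r was higher at 17.8 ± 10.4 and 68.5 ± 16.7 FPKM (log2 difference 2.08, SE 0.501, limma adjusted p = 0.0158). The difference was 1.46 without IL-2 replicate 5, and it was not called without IL-33 replicate 2 or 4 (largest adjusted p 0.0601). Both IL-10 receptor chains rose. Il10ra went from 38.5 ± 3.6 to 63.7 ± 1.27 FPKM (log2 difference 0.72, SE 0.0869, limma adjusted p = 0.00109). Il10rb went from 8.24 ± 0.368 to 16.1 ± 1.74 FPKM (log2 difference 0.88, SE 0.0991, limma adjusted p = 0.000808). Il12rb2, which confers IL-12 signalling on Th1 cells, fell from 9.57 ± 5.47 to 0.864 ± 0.468 FPKM (log2 difference -2.41, SE 0.347, limma adjusted p = 0.0022). Its partner Il12rb1 was not called (0.12, limma adjusted p = 0.53). Il13ra1 fell to 0.0804, 0.0869 and 0.0872 FPKM from 4.21, 3.3 and 1.99 (log2 difference -1.91, SE 0.198, limma adjusted p = 0.000605). Of the TGF-beta receptors, Tgfbr1 fell from 13.3 ± 4.42 to 5.13 ± 0.459 FPKM (log2 difference -1.18, SE 0.202, limma adjusted p = 0.00446). Tgfbr3 rose from 1.98 ± 0.709 to 4.34 ± 0.244 FPKM (log2 difference 0.87, SE 0.184, limma adjusted p = 0.00991).

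In the TNF receptor family 6 of 19 genes rose and 2 fell, with 4 falls without IL-33 replicate 6 and 1 without IL-33 replicate 2. Tnfrsf8, the CD30 gene, read 2.51, 2.81 and 0.409 FPKM with IL-2 alone and 116, 125 and 128 with IL-33. Tnfrsf9, which encodes 4-1BB, read 54, 66.5 and 59.5 FPKM with IL-2 alone and 519, 539.6 and 406 with IL-33 (log2 difference 3.00, SE 0.136, limma adjusted p = 2.31e-05). Neither gene's groups overlapped, and IL-2 replicate 5 was lowest only for Tnfrsf8. Tnfrsf4, the OX40 gene, was higher at 601 ± 50.0 and 806 ± 124 FPKM (log2 difference 0.42, SE 0.138, limma adjusted p = 0.0478). It was not called when any library was left out (largest adjusted p 0.121). Tnfrsf18, the GITR gene, overlapped at 281 ± 32.1 and 346 ± 41.3 FPKM. Among costimulators, Cd28 rose from 93.2 ± 25.8 to 206 ± 18.7 FPKM (log2 difference 1.18, SE 0.21, limma adjusted p = 0.00519). Sh2d1a, the SLAM adaptor SAP, rose from 2.19 ± 0.26 to 11.9 ± 0.476 FPKM (log2 difference 2.02, SE 0.0942, limma adjusted p = 2.33e-05). Icos was higher at 309 ± 99.5 and 753 ± 204 FPKM (limma adjusted p 0.0145). It was not called without IL-33 replicate 2 or 4 (largest adjusted p 0.056). Ctla4, the inhibitory CD28 relative, had the largest difference of the costimulator list, 5.44. It was 4.25 without IL-2 replicate 5 and 6.03 and 6.04 without IL-2 replicates 1 and 3. Cd86, a ligand of CD28 and CTLA-4, fell from 8.16 ± 1.73 to 0.221 ± 0.0166 FPKM (log2 difference -2.89, SE 0.142, limma adjusted p = 2.78e-05).

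The remaining inhibitory receptors split. Tigit read 133, 127 and 94 FPKM with IL-2 alone and 308, 344 and 355 with IL-33 (log2 difference 1.51, SE 0.145, limma adjusted p = 0.000428). Lag3, an inhibitory CD4 relative, rose from 2.93 ± 1.33 to 14.9 ± 3.3 FPKM (log2 difference 2.06, SE 0.269, limma adjusted p = 0.00147). Pdcd1, the gene of PD-1, read 66.5, 69 and 85.9 FPKM with IL-2 alone and 17.5, 17.7 and 28 with IL-33 (log2 difference -1.79, SE 0.194, limma adjusted p = 0.00069). The genes of both its ligands fell. Cd274 went from 131 ± 19.8 to 44.8 ± 14.3 FPKM (log2 difference -1.56, SE 0.216, limma adjusted p = 0.00189). Pdcd1lg2 went from 24.6 ± 1.68 to 13.7 ± 3.49 FPKM (log2 difference -0.82, SE 0.164, limma adjusted p = 0.00782). No library of 1 group reached the other in any of these 5 genes. Cd200r4, an activating CD200 receptor family member, fell from 33.1 ± 1.61 to 5.92 ± 0.421 FPKM (log2 difference -2.30, SE 0.084, limma adjusted p = 9.77e-06).

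Chemokine receptor genes that rose were 4 of 12. Ccr1 read 2.11, 1.96 and 0.426 FPKM with IL-2 alone and 43.1, 37.1 and 31.6 with IL-33 (log2 difference 4.01, SE 0.299, limma adjusted p = 0.000144). Cxcr4, the CXCL12 receptor, read 8.09, 8.94 and 7.72 FPKM with IL-2 alone and 46.6, 46.6 and 39.6 with IL-33 (log2 difference 2.29, SE 0.0978, limma adjusted p = 1.79e-05). Ccr3, the eotaxin receptor of eosinophils, rose from 1.18 ± 0.543 to 6.95 ± 1.16 FPKM (log2 difference 1.89, SE 0.205, limma adjusted p = 0.00069). Ccr8, the receptor for CCL1, rose from 22.3 ± 1.29 to 131 ± 18.2 FPKM. The most abundant chemokine receptor per transcript length, Cxcr6, was at 539 ± 31.4 and 722 ± 129 FPKM and not called (0.41, limma adjusted p = 0.0629). Without IL-33 replicate 6 it was called (0.55, limma adjusted p 0.0103), as after rescaling to a common sum. The Th2 homing receptor Ccr4 overlapped (0.09, limma adjusted p = 0.746). Cxcr3 and the scavenging receptor Ccrl2 fell, Ccrl2 from 10.3 ± 3.53 to 0.83 ± 0.173 FPKM (log2 difference -2.59, SE 0.213, limma adjusted p = 0.000216). Among adhesion genes 9 of 22 rose and 8 fell. Itgb7, the integrin chain of gut and mast cell homing, rose from 41.8 ± 1.7 to 132 ± 16 FPKM (log2 difference 1.63, SE 0.103, limma adjusted p = 6.94e-05). Itgb1, Itgae and Cd44 fell. Itgb1 went from 67.2 ± 1.2 to 36.6 ± 1.87 FPKM (log2 difference -0.86, SE 0.0734, limma adjusted p = 0.000259). The hyaluronan receptor Cd44 went from 197 ± 37.8 to 95.1 ± 17.5 FPKM (log2 difference -1.04, SE 0.18, limma adjusted p = 0.00455). Gpr132 and P2ry10, lipid-sensing receptors of lymphocytes, rose by 1.73 and 1.96 log2 units.

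Regulators of Th2 cells rose more often than they fell. Of 23 tested, 11 rose and 1 fell, or 3 without IL-33 replicate 6, with a median of 0.45. Ecm1, an extracellular matrix protein that Th2 cells use to leave lymph nodes, read 605, 709.8 and 376 FPKM with IL-2 alone and 2340.1, 2648 and 2862 with IL-33 (log2 difference 2.26, SE 0.237, limma adjusted p = 0.000621). Nfil3, a basic leucine zipper factor, rose from 18.1 ± 7.48 to 71.4 ± 16.9 FPKM (log2 difference 1.98, SE 0.328, limma adjusted p = 0.00384). Its relative Batf rose from 152 ± 19.8 to 343 ± 50.3 FPKM (log2 difference 1.17, SE 0.14, limma adjusted p = 0.00104). Epas1, which encodes the hypoxia-inducible factor HIF-2α, read 102, 101 and 34.1 FPKM with IL-2 alone and 257, 299 and 252 with IL-33 (log2 difference 1.91, SE 0.398, limma adjusted p = 0.00949). IL-2 replicate 5 was the lowest library for Ecm1, Nfil3 and Epas1. Maf was higher at 59.2 ± 32.1 and 192 ± 52 FPKM (log2 difference 1.85, SE 0.484, limma adjusted p = 0.0215). The difference was 1.26 without IL-2 replicate 5, and it was not called without IL-33 replicate 2 or 4 (largest adjusted p 0.0751). Irf4, an activation factor that Th2 differentiation needs, was the 1 that fell, from 329.8 ± 12.5 to 204 ± 20.4 FPKM without overlap (log2 difference -0.69, SE 0.0989, limma adjusted p = 0.0021).

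Genes of the opposing Th1 programme were lower. Of 14 Th1 genes tested, 9 fell and 1 rose (median -1.14). Tbx21 read 35.8, 37.2 and 70.3 FPKM with IL-2 alone and 3.93, 5.34 and 16.6 with IL-33, highest in replicates 5 and 6 of their groups and without overlap. Ifng was at 32.7, 35 and 198 FPKM with IL-2 alone and 7.43, 5.2 and 51.9 with IL-33, overlapped and was not called (log2 difference -2.15, SE 0.967, limma adjusted p = 0.113). It was called without IL-33 replicate 6 (-3.11, limma adjusted p 0.0188) and with the term for replicates 5 and 6 (limma adjusted p 3.86e-05). Runx3, a T-bet partner, was the gene that rose, from 16.7 ± 2.09 to 27.4 ± 2.81 FPKM (log2 difference 0.69, SE 0.119, limma adjusted p = 0.00455). Of the 18 regulatory T cell genes tested 8 rose and 3 fell, or 7 and 7 in libraries 1 to 4 alone and 7 and 5 without IL-2 replicate 5. Ikzf4, which encodes Eos, was among them and went from 4.27 ± 0.567 to 14 ± 1.09 FPKM (log2 difference 1.51, SE 0.111, limma adjusted p = 0.000135). Foxp3 itself lay below the filter at 0.631, 0.351 and 0.114 FPKM with IL-2 alone and 1.1, 1.1 and 0.919 with IL-33 (exact permutation p = 0.1, two-sided, the smallest that 3 against 3 libraries can give). The follicular helper regulator Bcl6 was at 9.37 ± 2.39 and 5.36 ± 1.31 FPKM. Its call ended without IL-2 replicate 1 or 5 or IL-33 replicate 2 or 4 (largest adjusted p 0.0966). Tox2 went from 0.959 ± 0.799 to 12.8 ± 1.49 FPKM (log2 difference 2.91, SE 0.313, limma adjusted p = 0.000671).

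Other regulators of effector cells followed no single direction, with 15 of 37 up and 10 down. Ikzf3, the Aiolos gene, read 22.6, 19.4 and 6.3 FPKM with IL-2 alone and 111, 119 and 74.7 with IL-33 (log2 difference 2.73, SE 0.436, limma adjusted p = 0.00336). Crem, a cyclic AMP response factor, read 14.6, 14.5 and 12.1 FPKM with IL-2 alone and 62.1, 50.0 and 47.4 with IL-33 (log2 difference 1.87, SE 0.126, limma adjusted p = 9.23e-05). Zfp36l2, which destabilises AU-rich transcripts, rose from 34.6 ± 4.84 to 121 ± 14.7 FPKM (log2 difference 1.78, SE 0.136, limma adjusted p = 0.000156). The largest falls were Irf8, from 77.8 ± 48.3 to 10.1 ± 2.68 FPKM (log2 difference -2.69, SE 0.387, limma adjusted p = 0.00221), and Irf7, given with the interferon genes. Atf3, a stress-induced repressor, read 73.9, 84.9 and 97.5 FPKM with IL-2 alone and 17.1, 16.7 and 19.7 with IL-33 (log2 difference -2.19, SE 0.12, limma adjusted p = 3.76e-05), with no overlap. Among memory and homing genes, Lef1 rose from 6.96 ± 1.78 to 16.2 ± 1.75 FPKM (log2 difference 1.13, SE 0.18, limma adjusted p = 0.00325). Satb1, a chromatin organiser, rose from 135 ± 43.8 to 277 ± 20.6 FPKM (log2 difference 1.09, SE 0.246, limma adjusted p = 0.0126). Foxp1 fell from 33.3 ± 3.29 to 14.4 ± 4.24 FPKM (log2 difference -1.19, SE 0.186, limma adjusted p = 0.00314). Id3 fell from 5.02 ± 1.36 to 1.58 ± 0.672 FPKM (log2 difference -1.23, SE 0.227, limma adjusted p = 0.00577).

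**Figure D3:**
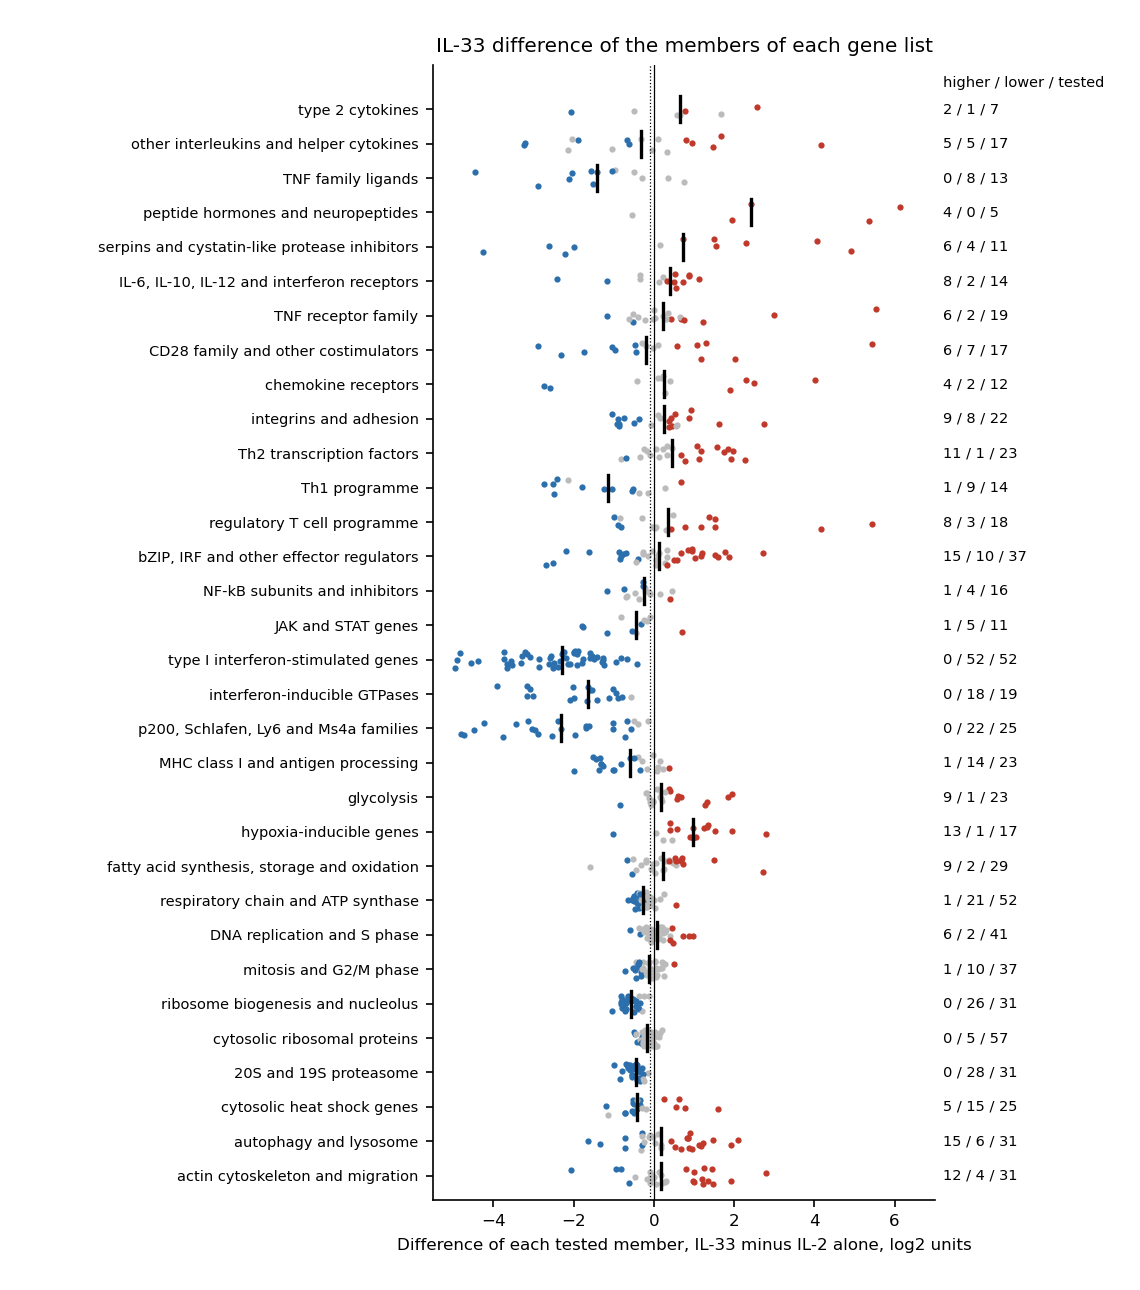
Each point is a tested member of the list named at the left, placed by its IL-33 difference in log2 units. Red members rose, blue fell and grey were not called, the thick black line is the list median, the solid vertical line is 0 and the dotted one the median of all genes, -0.106. The numbers at the right count members that rose, fell and were tested. The 52 interferon-stimulated genes lie wholly left of 0.

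Of 14 genes of the IL-33 receptor and its MyD88 relay, 3 rose and 3 fell (median -0.01). Irak3, an inhibitory member of the IRAK family, went from 1.48 ± 0.467 to 5.99 ± 2.67 FPKM (log2 difference 1.45, SE 0.268, limma adjusted p = 0.00588). Traf6 rose from 23.1 ± 1.99 to 30.5 ± 0.674 FPKM (log2 difference 0.39, SE 0.0856, limma adjusted p = 0.0114). Myd88 fell from 42.3 ± 3.97 to 30.7 ± 0.498 FPKM (log2 difference -0.45, SE 0.0875, limma adjusted p = 0.00734). Both moved by less than 0.5 log2 units. Of 16 NF-κB subunits and inhibitors, 1 rose (Bcl3, 0.41, limma adjusted p = 0.0208) and 4 fell. The count of falls was 1 without any 1 of the IL-2 libraries, 0 without IL-33 replicate 2 or 4 and 7 without IL-33 replicate 6. Bcl3 was not called without IL-33 replicate 4 (adjusted p 0.0648). Of 19 targets 2 rose and 5 fell, or 2 without IL-33 replicate 2 or 4 and 9 without IL-33 replicate 6. Ier3, an immediate early survival gene, read 33.1, 40.2 and 38.7 FPKM with IL-2 alone and 139.9, 150.3 and 256 with IL-33 (log2 difference 2.21, SE 0.226, limma adjusted p = 0.000568). Tnfaip3, which encodes the NF-κB inhibitor A20, read 56, 57 and 42 FPKM with IL-2 alone and 104, 105 and 157 with IL-33 (log2 difference 1.21, SE 0.192, limma adjusted p = 0.00325). Nfkbia overlapped at 212 ± 33.7 and 298 ± 105 FPKM and had an adjusted p of 0.0114 with the term for replicates 5 and 6 (limma). Bcl2a1b fell from 182 ± 49.5 to 93.3 ± 19.4 FPKM (log2 difference -0.95, SE 0.218, limma adjusted p = 0.0135).

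Promoters with a strict NF-κB motif were few and lay on both sides, and 4 are shown for that reason. The stretches are RefSeq sequence on GRCm38.p6, 5′ to 3′ towards the gene, and capitals mark the letters searched on both strands, GGGA and TTTCC with any 1 base between them, or in reverse GGAAA and TCCC.
Ccr3, chr9:124021762-124021851, plus strand: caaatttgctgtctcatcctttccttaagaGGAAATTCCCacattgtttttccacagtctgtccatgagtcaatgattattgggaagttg
Pglyrp1, chr7:18884567-18884656, plus strand: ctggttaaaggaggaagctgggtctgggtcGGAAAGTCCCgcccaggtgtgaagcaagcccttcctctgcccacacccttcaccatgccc
Il6, chr5:30013040-30013113, plus strand: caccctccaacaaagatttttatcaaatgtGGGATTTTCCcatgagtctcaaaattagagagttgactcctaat
Ltb, chr17:35194390-35194479, plus strand: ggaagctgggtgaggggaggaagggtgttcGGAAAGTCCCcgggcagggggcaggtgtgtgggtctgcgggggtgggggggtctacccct
Ccr3 and Pglyrp1, which encodes an antibacterial peptidoglycan-binding protein and was named after its value was seen, both rose. Pglyrp1 went from 1.37 ± 0.641 to 9.81 ± 2.44 FPKM (log2 difference 2.20, SE 0.247, limma adjusted p = 0.000811). Il6 and Ltb, the genes of interleukin 6 and lymphotoxin beta, were lower. Il6 was at 57.3, 61.5 and 47.5 FPKM with IL-2 alone and 9.07, 7 and 42 with IL-33 (log2 difference -1.89, SE 0.582, limma adjusted p = 0.0371). Ltb was at 278 ± 169 and 93.4 ± 21.3 FPKM (log2 difference -1.42, SE 0.381, limma adjusted p = 0.0231). Their groups did not overlap. The call of Il6 ended without any 1 library other than IL-33 replicate 6 (largest adjusted p 0.122), and its difference was -2.64 without IL-33 replicate 6. The call of Ltb ended without IL-33 replicate 2 or 4 (largest adjusted p 0.0781). The strict motif occurred in 0.341% of tested promoters, in 3 of 416 of genes that rose by at least 1 log2 unit and in 3 of 320 of those that fell by as much. The looser motif, GGG and CC with any 5 bases between them, contains the strict 1 and occurred in 61.9, 63.7 and 59.1% of the same sets. The AP-1 motif TGANTCA occurred in 4.09, 8.17 and 7.81%. The STAT motif TTCNNNGAA occurred in 6.21, 6.49 and 10%, both strands included.

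Feedback genes of the MAP kinase and cytokine routes went both ways, 7 up and 6 down of 25 in the MAP kinase list, with 3 falls without IL-33 replicate 2. Dusp10, a phosphatase acting on p38 and JNK, rose from 6.12 ± 3.23 to 23 ± 1.78 FPKM (log2 difference 1.88, SE 0.361, limma adjusted p = 0.00689). Dusp16 rose from 5.05 ± 0.125 to 11.6 ± 0.674 FPKM (log2 difference 1.06, SE 0.0813, limma adjusted p = 0.000159). Dusp2 fell from 289.7 ± 86.6 to 109.5 ± 22.3 FPKM (log2 difference -1.37, SE 0.226, limma adjusted p = 0.00374). Dusp6, an ERK phosphatase, overlapped (-0.23, limma adjusted p = 0.342). Nr4a1, an immediate early nuclear receptor, rose from 17.8 ± 2.25 to 58.4 ± 16.7 FPKM (log2 difference 1.63, SE 0.196, limma adjusted p = 0.00106). Socs3 read 37.8, 38.8 and 18.2 FPKM with IL-2 alone and 115, 132 and 101 with IL-33 (log2 difference 1.91, SE 0.282, limma adjusted p = 0.00243). Socs2 read 43.7, 45.2 and 21 FPKM with IL-2 alone and 99.6, 100.1 and 75.1 with IL-33 (log2 difference 1.36, SE 0.29, limma adjusted p = 0.0102). Both were lowest in IL-2 replicate 5. Cish and Pim1, targets of STAT5 under IL-2, overlapped. Cish was at 316 ± 19 and 334 ± 23.8 FPKM (limma adjusted p 0.541). Pim1 was at 258 ± 9.57 and 266 ± 44.9 FPKM (limma adjusted p 0.84). Of 11 JAK and STAT genes 1 rose and 5 fell (median -0.44), with 3 falls without IL-2 replicate 3 and 7 without IL-33 replicate 6. Against that direction Jak3, the Janus kinase of the common gamma chain, rose from 66.2 ± 6.89 to 107 ± 4.52 FPKM (log2 difference 0.69, SE 0.0976, limma adjusted p = 0.00208).

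Near the T cell receptor, 7 genes rose and 7 fell of 20, with 4 falls without IL-33 replicate 2 or 4. Trat1, an adaptor of the receptor complex, read 35, 39 and 26.9 FPKM with IL-2 alone and 157, 146 and 164 with IL-33 (log2 difference 2.19, SE 0.139, limma adjusted p = 7.06e-05). Cd4 rose from 76.7 ± 3.03 to 129 ± 11.9 FPKM (log2 difference 0.74, SE 0.0913, limma adjusted p = 0.00116). Lat, the scaffold downstream of the receptor, fell from 612 ± 36.1 to 348 ± 7.47 FPKM (log2 difference -0.81, SE 0.0892, limma adjusted p = 0.000725). Cd5, a negative regulator, fell from 176 ± 23 to 73.1 ± 24.6 FPKM (log2 difference -1.30, SE 0.223, limma adjusted p = 0.00452). Nfatc1, an inducible NFAT factor, fell from 55.7 ± 4.95 to 23.4 ± 3.97 FPKM (log2 difference -1.22, SE 0.131, limma adjusted p = 0.000663). Pik3cg, the PI3-kinase subunit of G protein-coupled receptors, rose from 9 ± 0.28 to 25.7 ± 3.58 FPKM (log2 difference 1.41, SE 0.112, limma adjusted p = 0.000182).

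The interferon-stimulated genes moved together downwards. All 52 genes of the list were tested and all 52 fell, none overlapped, and the median was -2.28, against a background of 25.7% of genes that fell. The list was drawn up with earlier results on some of its members known, so its direction is not independent evidence. Between 50 and 52 fell under the other scalings and when any single library was left out. Ifi27l2a, the most abundant, read 2345, 2549.5 and 2573 FPKM with IL-2 alone and 538, 381 and 885 with IL-33 (log2 difference -2.13, SE 0.284, limma adjusted p = 0.00158). Isg15, a ubiquitin-like modifier, read 659, 716 and 742 FPKM with IL-2 alone and 92.7, 68.2 and 137 with IL-33 (log2 difference -2.87, SE 0.232, limma adjusted p = 0.000196). Bst2, which tethers enveloped virions, read 541, 598 and 434 FPKM with IL-2 alone and 97.7, 86.5 and 111 with IL-33 (log2 difference -2.40, SE 0.147, limma adjusted p = 6.24e-05). In each of these 3 genes the lowest IL-2 library held more than 2 times the highest IL-33 library. Ifit3 and Rsad2, an inhibitor of foreign RNA translation and the antiviral enzyme viperin, were reduced to 0.156, 0.0675 and 0.31 FPKM for Ifit3 and 0.781, 1.06 and 1.24 for Rsad2. Ifit3 shares near-identical sequence with its neighbour I830012O16Rik, and the Oas1 and Gbp genes have close copies, so the division of reads within those families is uncertain.

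The promoters of 8 of these genes are shown because each carries the interferon-stimulated response element within 250 bases before the RefSeq transcript start. Each stretch is RefSeq sequence running 5′ to 3′ towards the gene on the GRCm38.p6 build (mm10), and capitals mark the letters searched on both strands, GAAA and GAAA with any 2 bases between them, or in reverse TTTC and TTTC.
Rsad2, chr12:26456513-26456602, minus strand: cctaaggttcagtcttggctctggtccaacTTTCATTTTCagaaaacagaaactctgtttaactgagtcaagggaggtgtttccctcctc
Ifit3, chr19:34583343-34583432, plus strand: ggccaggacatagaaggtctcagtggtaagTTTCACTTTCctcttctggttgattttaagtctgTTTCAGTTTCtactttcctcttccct
Isg15, chr4:156200837-156200926, minus strand: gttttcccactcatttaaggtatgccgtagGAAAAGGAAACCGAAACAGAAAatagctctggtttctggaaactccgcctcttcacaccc
Oas3, chr5:120777675-120777764, minus strand: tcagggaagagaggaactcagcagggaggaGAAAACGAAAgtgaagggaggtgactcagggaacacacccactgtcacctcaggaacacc
Gbp2, chr3:142620574-142620662, plus strand: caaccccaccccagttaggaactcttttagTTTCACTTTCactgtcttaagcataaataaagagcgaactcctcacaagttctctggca
Bst2, chr8:71537543-71537632, minus strand: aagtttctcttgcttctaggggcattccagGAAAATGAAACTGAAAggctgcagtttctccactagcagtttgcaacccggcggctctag
Ddx60, chr8:61928004-61928086, plus strand: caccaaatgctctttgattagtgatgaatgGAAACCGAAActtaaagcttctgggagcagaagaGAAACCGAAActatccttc
Cxcl10, chr5:92349043-92349132, minus strand: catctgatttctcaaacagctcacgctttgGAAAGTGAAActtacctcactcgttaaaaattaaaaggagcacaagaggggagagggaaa
Ifit3 and Ddx60 have 2 separate copies, and in Isg15 and Bst2 overlapping copies run together. All 8 were taken from interferon-inducible genes that fell, so their shared direction was set by that choice. The log2 differences were -4.91 (Rsad2), -4.83 (Ifit3), -2.87 (Isg15), -3.29 (Oas3), -3.16 (Gbp2), -2.40 (Bst2), -2.28 (Ddx60) and -3.65 (Cxcl10).

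The motif was found in 2.86% of 8208 promoters of tested genes, and in 3.04% of all promoters of the same length in the table. Genes that fell by at least 1 log2 unit held it in 55 of 320 promoters (17.2%). Those that fell by at least 2 held it in 33 of 98 (33.7%). Genes that rose by at least 1 log2 unit held it in 15 of 416 (3.61%), and genes not called in 2.19%. Of the 52 interferon-stimulated genes, 37 had a promoter in the table and 13 of these held it (35.1%). Of interferon-inducible GTPases 10 of 11 held it, and of the p200, Schlafen, Ly6 and Ms4a families 7 of 21. A match describes the letters in the window and not a bound site.

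**Figure D4:**
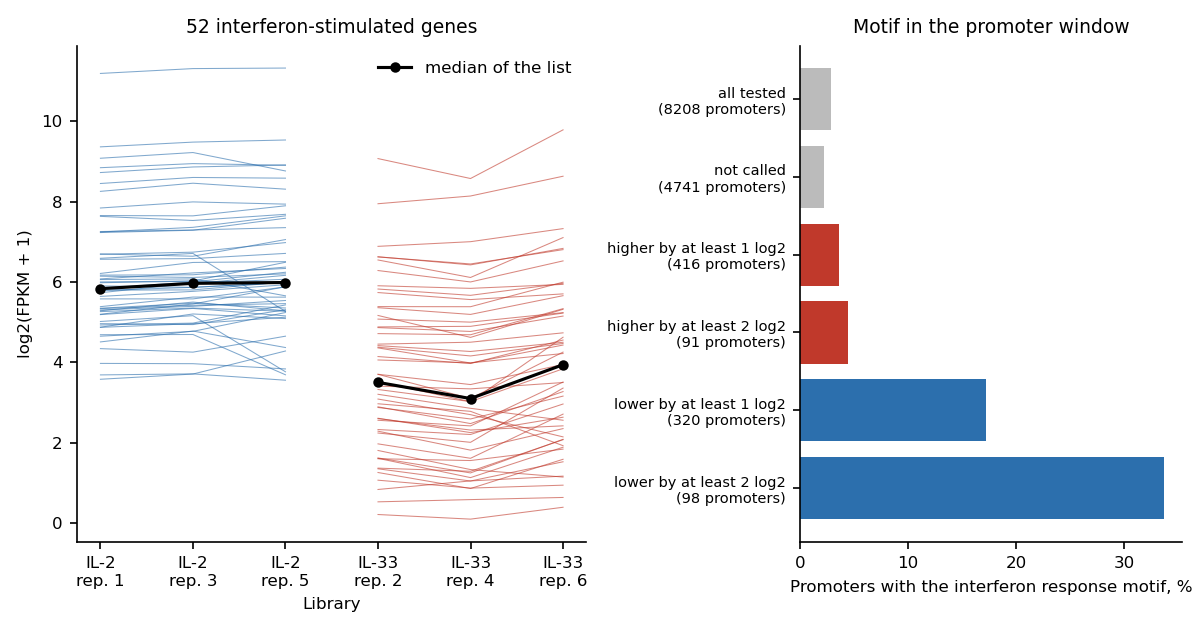
Left, the log2(FPKM + 1) of 52 interferon-stimulated genes in each library: thin lines join the values of 1 gene within a group, blue with IL-2 alone and red with IL-33, and black points are the medians. Right, the percentage of promoters with the interferon-stimulated response element, in all tested genes and in genes split by their IL-33 difference, with the number of promoters in brackets. The medians lie near 6 in the 3 IL-2 libraries and below 4 in the 3 IL-33 libraries.

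The other interferon-inducible families fell as well. Of 19 GTPase genes, 18 fell, led by Iigp1 at 125, 131 and 211 FPKM with IL-2 alone and 6.19, 5.65 and 21.1 with IL-33 (log2 difference -3.90, SE 0.465, limma adjusted p = 0.00102). Igtp was the exception, overlapping at 248 ± 49.6 and 169 ± 47.8 FPKM (-0.57, limma adjusted p = 0.0726), but called without IL-33 replicate 6 (-0.79, limma adjusted p 0.0103). Of 25 tested genes of the p200, Schlafen, Ly6 and Ms4a families 22 fell. Ms4a4b, a membrane protein of the CD20 family, read 543, 550.4 and 530.4 FPKM with IL-2 alone and 18, 17.9 and 23.3 with IL-33 (log2 difference -4.72, SE 0.113, limma adjusted p = 4.61e-06). The p200 gene Ifi202b read 107, 114 and 105 FPKM with IL-2 alone and 3.98, 2.32 and 6.1 with IL-33 (log2 difference -4.48, SE 0.249, limma adjusted p = 4.15e-05). Ly6a, the Sca-1 gene and the most abundant of them, overlapped at 3115 ± 625 and 2794 ± 497 FPKM (-0.15, limma adjusted p = 0.586). Slfn2 overlapped too, but was called without IL-33 replicate 6 (limma adjusted p 0.00475). Among genes that carry the signal, Stat2 went from 62.7 ± 7.61 to 18 ± 4.07 FPKM (log2 difference -1.76, SE 0.164, limma adjusted p = 0.000374). Irf7 went from 243 ± 12.9 to 41.8 ± 7.13 FPKM (log2 difference -2.52, SE 0.127, limma adjusted p = 2.93e-05).

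The ligands themselves were detectable with IL-2 alone. Ifnb1, the interferon beta gene, read 4.64, 4.5 and 3.96 FPKM with IL-2 alone and 0.0991, 0.107 and 0 with IL-33 (log2 difference -2.33, SE 0.104, limma adjusted p = 2.27e-05). Ifna4 read 5.86, 7.73 and 8.17 FPKM with IL-2 alone and 0.128, 0 and 0 with IL-33 (log2 difference -2.98, SE 0.137, limma adjusted p = 2.33e-05). Ifna2 was at 5.41, 7.7 and 11 FPKM with IL-2 alone and was listed at 0 in the 3 IL-33 libraries. In these genes no IL-33 library reached 0.2 FPKM and no IL-2 library was under 3 FPKM, and reads may be divided among the closely related interferon alpha genes. Usp18, the negative regulator of the interferon receptor, fell from 171 ± 25.4 to 12.6 ± 5.28 FPKM (log2 difference -3.73, SE 0.275, limma adjusted p = 0.000135). The interferon gamma receptor gene Ifngr1 rose from 11.8 ± 0.718 to 17.2 ± 2.32 FPKM (log2 difference 0.50, SE 0.112, limma adjusted p = 0.012).

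Of 23 genes of class I presentation 14 fell and 1 rose, or 0 to 1 with 1 library left out. The light chain gene B2m and the heavy chain gene H2-K1 overlapped. B2m was at 4297 ± 527 and 4599 ± 750.1 FPKM (limma adjusted p 0.701). H2-K1 was at 805 ± 32.6 and 788 ± 54.8 FPKM (limma adjusted p 0.814). The peptide loading factor tapasin, Tapbp, read 295, 302 and 342 FPKM with IL-2 alone and 113, 131 and 114 with IL-33 (log2 difference -1.38, SE 0.1, limma adjusted p = 0.000126). The immunoproteasome gene Psmb9 read 209.6, 217 and 275 FPKM with IL-2 alone and 75.5, 85 and 93.1 with IL-33 (log2 difference -1.45, SE 0.132, limma adjusted p = 0.000348). The proteasome activator Psme2 fell from 209 ± 28.9 to 72.7 ± 16.1 FPKM (log2 difference -1.52, SE 0.17, limma adjusted p = 0.000793). The nonclassical H2-T24 fell from 83.8 ± 4.77 to 20.4 ± 1.87 FPKM (log2 difference -1.99, SE 0.0928, limma adjusted p = 2.33e-05). Of 9 class II genes 3 rose and 3 fell, with 5 falls without IL-2 replicate 5 and 1 to 2 without any other library. H2-Ab1 rose from 2.6 ± 1.04 to 10.2 ± 2.69 FPKM (log2 difference 1.65, SE 0.267, limma adjusted p = 0.00358). Its peptide exchange partner H2-DMa rose from 9.65 ± 1.46 to 17.8 ± 1.5 FPKM (log2 difference 0.83, SE 0.12, limma adjusted p = 0.00228). The protease Ctss, which trims the invariant chain, fell from 109 ± 6.82 to 34.4 ± 1.22 FPKM (log2 difference -1.63, SE 0.0792, limma adjusted p = 2.62e-05). The invariant chain Cd74 overlapped between the groups at 13.9 ± 7.13 and 6.15 ± 1.23 FPKM. It was called without IL-2 replicate 5 (-1.41, limma adjusted p 0.00189), and the class II transactivator Ciita was below the filter.

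Of 17 hypoxia-inducible genes tested, 13 rose and 1 fell, with a median of 0.97. Ndrg1, a stress-response gene, read 18.9, 21.8 and 14.9 FPKM with IL-2 alone and 126, 142 and 130.4 with IL-33 (log2 difference 2.79, SE 0.137, limma adjusted p = 2.78e-05). Egln3, a prolyl hydroxylase that marks HIF for destruction, read 33.5, 36 and 24.2 FPKM with IL-2 alone and 78.9, 98.8 and 95 with IL-33 (log2 difference 1.52, SE 0.163, limma adjusted p = 0.000659). Bnip3, a mitophagy receptor, read 14.5, 14.1 and 5.12 FPKM with IL-2 alone and 55.6, 50.6 and 26.7 with IL-33 (log2 difference 1.94, SE 0.418, limma adjusted p = 0.0107), with replicates 5 and 6 the lowest of their groups. Of 23 glycolysis genes 9 rose and 1 fell. Eno2 and Aldoc, isoforms of low level, were among those that rose. Eno2 went from 3.38 ± 0.899 to 14.7 ± 1.79 FPKM (log2 difference 1.86, SE 0.171, limma adjusted p = 0.000361). Aldoc went from 4.71 ± 0.544 to 12.8 ± 0.614 FPKM (log2 difference 1.28, SE 0.0987, limma adjusted p = 0.000161). The main aldolase Aldoa was at 722 ± 40.2 and 710.3 ± 65.5 FPKM (-0.03, limma adjusted p = 0.864). The pyruvate and lactate importer Slc16a1 fell from 36.3 ± 3.55 to 19.8 ± 2.57 FPKM (log2 difference -0.84, SE 0.116, limma adjusted p = 0.00182).

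The promoters of 3 of these genes hold ACGTG or its reverse complement CACGT, the core bound by hypoxia-inducible factors, shown in capitals from RefSeq sequence on GRCm38.p6.
Bnip3, chr7:138909555-138909644, minus strand: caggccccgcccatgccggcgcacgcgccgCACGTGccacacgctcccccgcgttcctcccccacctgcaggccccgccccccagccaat
Egln3, chr12:54204035-54204124, minus strand: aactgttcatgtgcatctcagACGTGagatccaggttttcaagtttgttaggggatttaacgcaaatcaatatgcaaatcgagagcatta
Ero1l, chr14:45318576-45318665, minus strand: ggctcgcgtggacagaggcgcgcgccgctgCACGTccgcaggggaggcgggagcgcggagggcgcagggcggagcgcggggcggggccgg
In Bnip3 the 2 strands overlap in a single palindrome. The letters occurred in 8 of 14 promoters of the hypoxia list, in 23.1% of all tested promoters, and in 20.4% of promoters of genes that rose by at least 1 log2 unit.

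Of 52 respiratory chain genes 21 fell and 1 rose (median -0.26). The falls numbered 9 after rescaling to a common sum. They numbered 11, 6 and 13 without IL-2 replicates 1, 3 and 5 and 8 without IL-33 replicate 4. Citrate synthase, Cs, fell from 82.2 ± 1.08 to 57.5 ± 1.88 FPKM (log2 difference -0.51, SE 0.0693, limma adjusted p = 0.00176). Sdhb, of succinate dehydrogenase, fell from 142 ± 2.62 to 102 ± 6.55 FPKM (log2 difference -0.48, SE 0.0798, limma adjusted p = 0.00395). Of 29 fatty acid genes 9 rose and 2 fell. Plin2, the coat protein of lipid droplets, read 15.4, 12.1 and 14.4 FPKM with IL-2 alone and 98.9, 86.9 and 107 with IL-33 (log2 difference 2.72, SE 0.119, limma adjusted p = 2.05e-05). The desaturase Scd2 rose from 16.5 ± 5.59 to 46.6 ± 9.19 FPKM (log2 difference 1.49, SE 0.269, limma adjusted p = 0.00541). The gene of fatty acid synthase, Fasn, fell from 43.4 ± 2.53 to 27.1 ± 1.47 FPKM (log2 difference -0.66, SE 0.0815, limma adjusted p = 0.00118). Of 27 serine, one-carbon and nucleotide genes 3 rose, or 1 to 2 with 1 library left out, and 14 fell, but 9 after rescaling to a common sum, 7 without IL-33 replicate 2 and 8 without IL-33 replicate 4. Phgdh, of serine synthesis, was among them and went from 32 ± 2.2 to 18.4 ± 2.55 FPKM (log2 difference -0.78, SE 0.117, limma adjusted p = 0.0026).

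Of 27 antioxidant genes 6 rose and 10 fell. The secretory pathway peroxiredoxin Prdx4 rose from 48.8 ± 2.15 to 99.9 ± 9.36 FPKM (log2 difference 1.02, SE 0.0915, limma adjusted p = 0.000328). The lipid peroxide reductase Gpx4 rose from 27.9 ± 0.663 to 48.8 ± 5.06 FPKM (log2 difference 0.78, SE 0.0939, limma adjusted p = 0.00105). The cytosolic Prdx1 read 266, 276 and 258 FPKM with IL-2 alone and 145, 124 and 146 with IL-33 (log2 difference -0.95, SE 0.0939, limma adjusted p = 0.000492). Thioredoxin, Txn1, read 299.6, 316 and 317 FPKM with IL-2 alone and 172, 159 and 162 with IL-33 (log2 difference -0.92, SE 0.0792, limma adjusted p = 0.000274). Neither overlapped. Nfe2l2, the NRF2 gene, fell from 14.9 ± 0.766 to 7.16 ± 0.284 FPKM (log2 difference -0.97, SE 0.0798, limma adjusted p = 0.000219), as did its target Gclm (-1.12, limma adjusted p = 0.000165).

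Of 41 replication genes 6 rose, or 3 without IL-2 replicate 1 or 5 and 2 without IL-33 replicate 6, and 2 fell, or 7 without IL-33 replicate 6 and 0 to 1 without any other library. Of 37 mitosis genes 1 rose, or 1 to 2 with 1 library left out, and 10 fell. The falls numbered 4 after rescaling to a common sum. They also numbered 4 without IL-2 replicate 1, IL-2 replicate 3 or IL-33 replicate 2, and 3 without IL-33 replicate 4. Over all genes 16.3% rose and 25.7% fell. The rises among replication genes and the falls among mitosis genes lay near those shares. Mcm6, a subunit of the replicative helicase, rose from 23.4 ± 1.69 to 46.8 ± 6.92 FPKM (log2 difference 0.96, SE 0.118, limma adjusted p = 0.00112). Pcna and Top2a overlapped (limma adjusted p 0.949 for Pcna and 0.364 for Top2a). Among the brakes of the cycle, Rbl2, which encodes the pocket protein p130, read 25.2, 24.6 and 20.1 FPKM with IL-2 alone and 75.5, 79.8 and 66.5 with IL-33 (log2 difference 1.63, SE 0.115, limma adjusted p = 0.000111). Cdkn2d, the p19 inhibitor, rose from 22.3 ± 7.19 to 51.9 ± 8.58 FPKM (log2 difference 1.22, SE 0.248, limma adjusted p = 0.00864). Cdkn2a, the gene of p16 and p19ARF, read 66.3, 68.8 and 61.9 FPKM with IL-2 alone and 10.2, 10.5 and 23.1 with IL-33 (log2 difference -2.19, SE 0.284, limma adjusted p = 0.00143). Cdkn2b fell from 11.1 ± 0.69 to 3.26 ± 1.83 FPKM (log2 difference -1.59, SE 0.265, limma adjusted p = 0.004). Myc was lower at 219 ± 41.5 and 96.6 ± 56.6 FPKM (log2 difference -1.30, SE 0.362, limma adjusted p = 0.0261). The call ended without IL-2 replicate 3 or 5 or IL-33 replicate 2 or 4 (largest adjusted p 0.0895). Its partner Max fell from 52.3 ± 13 to 21.1 ± 2.28 FPKM (log2 difference -1.25, SE 0.171, limma adjusted p = 0.00178). The antagonist Mxd1 fell from 48.4 ± 4.29 to 17.2 ± 4.66 FPKM (log2 difference -1.47, SE 0.174, limma adjusted p = 0.00101).

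Of 31 ribosome biogenesis genes 26 fell and 0 rose (median -0.58). The falls numbered 18 after rescaling to a common sum, 17 without IL-33 replicate 2 and 16 without IL-33 replicate 4. Ncl, the nucleolin gene, read 195, 197 and 194 FPKM with IL-2 alone and 86.1, 84.4 and 117 with IL-33 (log2 difference -1.03, SE 0.134, limma adjusted p = 0.00144). Nucleophosmin, Npm1, fell from 610.1 ± 52.9 to 363 ± 27.2 FPKM (log2 difference -0.75, SE 0.109, limma adjusted p = 0.00231). Of 57 genes of the ribosomal proteins themselves 5 fell, a smaller share than among all genes, with 2 falls without IL-2 replicate 3 and 3 without IL-2 replicate 1 or 5 or IL-33 replicate 2 or 4. Of 31 proteasome genes 28 fell and 0 rose, or 21 after rescaling to a common sum. The core subunit gene Psma5 read 105, 98.2 and 98.8 FPKM with IL-2 alone and 54.2, 45.5 and 49.5 with IL-33 (log2 difference -1.01, SE 0.088, limma adjusted p = 0.000288).

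Of 25 heat shock and chaperone genes of cytosol and mitochondria 15 fell, or 9 without IL-2 replicate 1, IL-2 replicate 3 or IL-33 replicate 4. In the same list 5 rose, or 2 to 4 with 1 library left out. Hsp90ab1 and Hspd1 were among the genes that fell. Hsp90ab1 went from 1354 ± 169 to 816 ± 53.6 FPKM (log2 difference -0.72, SE 0.13, limma adjusted p = 0.00537). Hspd1 went from 245 ± 2.87 to 149 ± 21.6 FPKM (log2 difference -0.72, SE 0.113, limma adjusted p = 0.00305). Of 30 genes of secretory folding 9 rose, or 5 without IL-33 replicate 4, and 3 fell, or 0 to 2 with 1 library left out. The oxidase Ero1l, which forms disulphide bonds in secreted proteins, read 164, 166 and 104 FPKM with IL-2 alone and 365, 395 and 336 with IL-33 (log2 difference 1.36, SE 0.189, limma adjusted p = 0.00192). Xbp1, the regulator of secretory capacity, read 187, 182 and 148 FPKM with IL-2 alone and 334, 352 and 319 with IL-33 (log2 difference 0.96, SE 0.112, limma adjusted p = 0.000944). The abundant chaperones Hspa5 and Hsp90b1 were not called (limma adjusted p 0.192 for Hspa5 and 0.301 for Hsp90b1).

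Lysosomal and cytoskeletal genes rose more often than they fell. Of 31 autophagy and lysosome genes 15 rose and 6 fell. Npc2, a cholesterol carrier, read 134, 147 and 106 FPKM with IL-2 alone and 303, 286 and 315 with IL-33 (log2 difference 1.23, SE 0.131, limma adjusted p = 0.00064). The protease gene Lgmn rose from 1.66 ± 0.914 to 9.82 ± 0.223 FPKM (log2 difference 2.09, SE 0.261, limma adjusted p = 0.00123). Gabarapl1 fell from 30.3 ± 3.55 to 11.3 ± 0.951 FPKM (log2 difference -1.34, SE 0.108, limma adjusted p = 0.00019). Of 31 actin and migration genes 12 rose and 4 fell. Vim, the vimentin gene, read 619, 648 and 367 FPKM with IL-2 alone and 2364, 2605 and 1297 with IL-33 (log2 difference 1.92, SE 0.323, limma adjusted p = 0.0041). The galectin genes Lgals1 and Lgals3 rose. Lgals1 went from 722 ± 68.3 to 1694 ± 259.7 FPKM (log2 difference 1.22, SE 0.147, limma adjusted p = 0.00105). Lgals3 went from 3.54 ± 1.86 to 28.6 ± 4.26 FPKM (log2 difference 2.80, SE 0.325, limma adjusted p = 0.000937). Thymosin beta 4, Tmsb4x, the second most abundant gene with IL-33, rose from 3728 ± 119 to 7454 ± 996 FPKM (log2 difference 0.99, SE 0.159, limma adjusted p = 0.0034). The call ended without the filter on low values. Tmsb10, its relative, fell from 1010.4 ± 79.5 to 526 ± 48.1 FPKM (log2 difference -0.94, SE 0.115, limma adjusted p = 0.00113). Annexin A1, Anxa1, a mediator of glucocorticoid action, fell from 23.1 ± 2.9 to 4.8 ± 1.12 FPKM (log2 difference -2.07, SE 0.158, limma adjusted p = 0.000158).

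Of 30 death and survival genes 7 rose and 9 fell. Mlkl, which executes necroptosis, read 32.2, 37.9 and 50.3 FPKM with IL-2 alone and 5.05, 3.6 and 4.93 with IL-33 (log2 difference -2.88, SE 0.182, limma adjusted p = 6.94e-05). The inflammatory caspase gene Casp1 fell from 44.3 ± 2.25 to 12.3 ± 4.92 FPKM (log2 difference -1.82, SE 0.23, limma adjusted p = 0.00129). Bcl2l2, a survival gene, rose from 1.74 ± 0.528 to 6.24 ± 0.356 FPKM (log2 difference 1.42, SE 0.155, limma adjusted p = 0.000721). Bcl2l1, the Bcl-xL gene, overlapped at 194 ± 37.1 and 140.4 ± 53.8 FPKM, but was called without IL-33 replicate 6 (-0.81, limma adjusted p 0.00842).

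Some of the genes that moved by at least 1 log2 unit lay side by side. Runs of at least 3 neighbouring tested genes, called in 1 direction and within 500 kb of the next, numbered 11 upwards with 39 genes and 21 downwards with 102 genes. The longest held 11 genes of the p200 family on chromosome 1, from BC094916 to Ifi205 (chr1:173521311-174031755, mm10). On the same chromosome Raph1, Cd28, Ctla4 and Icos rose together, the first 3 by 1.32, 1.18 and 5.44 log2 units. The decoy and signalling receptors Il1r2 and Il1r1 formed another run with Gm16894, beyond which Il1rl2 was not called and Il1rl1 rose. Ikzf3, Zpbp2 and Ormdl3, neighbours in the interval that carries asthma-associated variation in people, rose by 2.73, 1.34 and 1.96. The next tested genes on either side, 1810046J19Rik and Psmd3, differed by 0.47 and -0.69. The call of 1810046J19Rik, chosen after its value was seen, ended without IL-33 replicate 2 or 4 (largest adjusted p 0.0665). Next to Stfa2 on chromosome 16 a run of 5 genes of the stefin cluster ended before Cd86, which fell. Beside the interferon alpha genes on chromosome 4, Mtap, Cdkn2a and Cdkn2b fell with Ifna1, Ifna4 and Ifna5 (-1.68, -2.19, -1.59, -1.37, -2.98 and -1.36). On chromosome 8 Irs2, Col4a1, Col4a2 and Rab20 rose by 2.19, 1.26, 1.07 and 1.20. Neighbours can share reads where transcripts overlap or copies are alike, as in the stefin, Oas, Gbp and Ms4a runs.

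**Figure D5:**
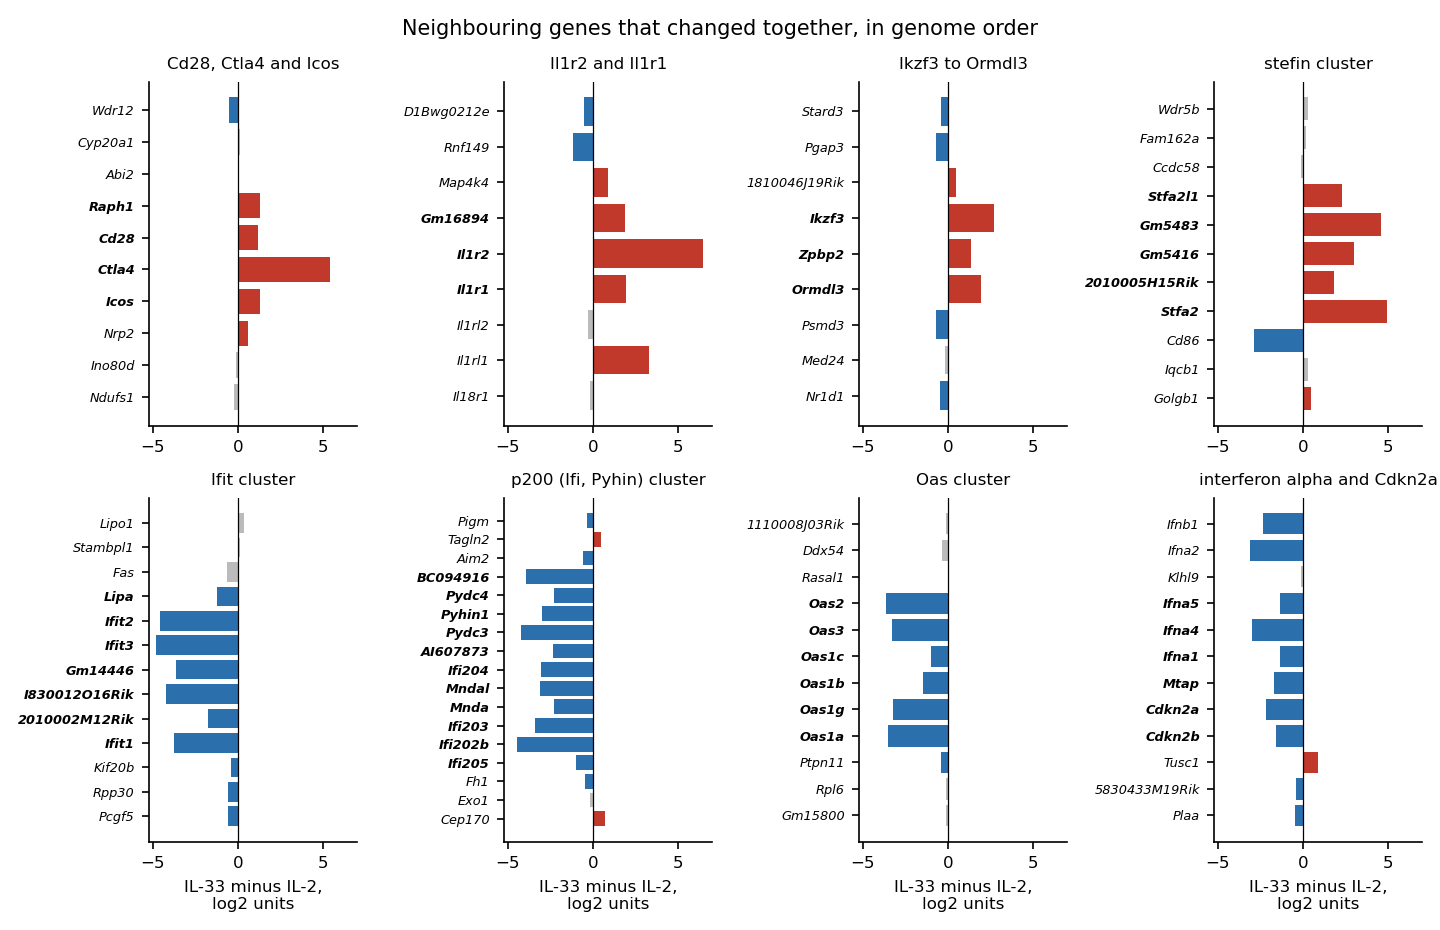
Bars give the IL-33 difference in log2 units of neighbouring tested genes in genome order for 8 runs, red where the gene rose, blue where it fell and grey where it was not called. Names in bold belong to the run and the others are the 3 tested genes on each side. The longest run shown has 11 genes, all lower with IL-33.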

How the data were processed

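The deposited values are FPKM per gene, made by the authors with TopHat 1.3.2, Bowtie 0.12.8 and Cufflinks 2.0.2 on mm10, per the submitters' processing notes, from total RNA prepared with a stranded mRNA kit, per the labels' protocols. No read counts were used here, so depth is known only as a relative value. FPKM of entries with 1 symbol were summed (240 symbols had several entries). Symbols with at least 1 FPKM in at least 3 of 6 libraries were tested with limma 3.58.1 (R 4.3.3) on log2(FPKM + 1), with an intensity trend and Benjamini-Hochberg adjustment over 10296 genes. Other scalings, filters, pseudocounts and each library left out in turn were alternatives, and the fit was tested on simulated data. Between libraries of a group log2 values correlated at 0.961 to 0.981 across genes, and at most 1 symbol had an equal value. Each library was counted as a replicate, although this check cannot tell separate cultures from repeats of 1 culture.

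Genes named were drawn from the 25 with the largest difference in each direction among called genes without overlap and at least 5 FPKM. From each list up to 5 called genes per direction and 4 abundant genes could be named, or any member of lists of at most 12. Members of neighbouring runs and 15 abundant genes per group could be named too. Not every gene that met these rules is named. Pglyrp1, Ddx60 and 1810046J19Rik were added after their values were seen. The members and lists were chosen with earlier results of these data known. Promoters (250 bases before to 50 after the start) are RefSeq's on GRCm38.p6, and 8208 tested genes matched. Where a gene had several, the first was taken.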

Additional observations from a re-analysis of the deposited data

How the results depend on the processing

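Of 933 genes called with at least 1 log2 unit, all kept their sign in the 19 alternatives and 926 were called the same way under the other scalings. Of 3398 called genes within 1 log2 unit, 2337 were called the same way after rescaling to a common sum. The genes that fell numbered 1586 under that rescaling and 4050 with array weights. With a pseudocount of 5, 255 genes rose and 248 fell by at least 1 log2 unit. With 1 library left out the genes that rose numbered 1210 to 1727, those that fell 1530 to 3135, and those of at least 1 log2 unit 461 to 539 upwards and 363 to 503 downwards. The cause of these shifts was not tested. Of 240 genes named above that were called, 224 were called in every alternative that tested them and none reversed. Of 37 named genes that were not called, 21 were called in the direction of their main difference under at least 1 alternative. Ccr4, which is not among those 21, was called in the other direction in libraries 1 to 4 alone. Its difference was 0.09 in the main fit and -0.28 there (limma adjusted p 0.0202). No paired analysis was possible because the 2 groups share no replicate number and the labels state no pairs. Pairs could only be assumed from the running order of the numbers, such as IL-2 replicate 5 with IL-33 replicate 6. Such pairs were not fitted. The term for IL-2 replicate 5 and IL-33 replicate 6 sets these apart from the other libraries and does not take the place of pairing. Depth limits the low genes most: values under 1 FPKM rest on few reads, and the deposited FPKM do not say how many.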

Other observations

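Several genes with large differences were not described above. Cd24a, a glycosylated surface protein of immature and activated cells, rose from 1.76 ± 0.787 to 45.6 ± 2.14 FPKM (log2 difference 4.12, SE 0.212, limma adjusted p = 3.02e-05). Serinc5, which encodes a membrane protein that lowers the infectivity of retroviruses, read 3.82, 3.53 and 4.02 FPKM with IL-2 alone and 39.9, 41 and 49.3 with IL-33 (log2 difference 3.21, SE 0.104, limma adjusted p = 7.09e-06), and its groups lay far apart. Htr1b, a serotonin receptor gene, rose from 4.24 ± 2.46 to 44.5 ± 6.15 FPKM (log2 difference 3.25, SE 0.386, limma adjusted p = 0.001) and Bace2, an aspartic protease gene, from 1.02 ± 0.172 to 24.2 ± 5.88 FPKM (log2 difference 3.62, SE 0.169, limma adjusted p = 2.33e-05). Galc, which encodes the lysosomal enzyme galactosylceramidase, read 2.65, 2.68 and 1.22 FPKM with IL-2 alone and 28.3, 31.9 and 23.6 with IL-33 (log2 difference 3.21, SE 0.217, limma adjusted p = 9.3e-05). Adap1, a GTPase-activating protein gene, rose from 2.72 ± 0.921 to 41.3 ± 10.9 FPKM (log2 difference 3.51, SE 0.238, limma adjusted p = 9.36e-05). Among genes that fell, Ube2l6 and Usp18 attach and remove the ISG15 modifier, and Ube2l6 read 77.4, 90.4 and 88.1 FPKM with IL-2 alone and 3.69, 2.87 and 4.45 with IL-33 (log2 difference -4.22, SE 0.137, limma adjusted p = 7.09e-06).

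The chromatin and transport genes named here moved by less than 1 log2 unit. That scale understates the change of Dnmt3b and Abca1, which lay near 1 FPKM. The DNA methyltransferase gene Dnmt3b fell from 2.82 ± 0.776 to 0.984 ± 0.147 FPKM (log2 difference -0.93, SE 0.158, limma adjusted p = 0.00423). The amino acid transporter gene Slc7a5 fell from 119 ± 8.79 to 73.5 ± 11 FPKM (log2 difference -0.69, SE 0.123, limma adjusted p = 0.00511), and Slc38a2, a transporter of small neutral amino acids, rose from 36.3 ± 2.97 to 54.8 ± 5 FPKM (log2 difference 0.58, SE 0.1, limma adjusted p = 0.00454). The cholesterol exporter gene Abca1 was near the filter, at 0.543, 0.542 and 0.223 FPKM with IL-2 alone and 1.24, 1.58 and 1.49 with IL-33 (log2 difference 0.77, SE 0.133, limma adjusted p = 0.00455).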
